A study of Mus musculus with 6 samples.

Results

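The genes described here encode the proteins of the mitochondrial ribosome. They were taken by symbol from the deposited table, as every gene named Mrpl or Mrps with a number and at most 1 letter a, b or c, which gave 78 of the table's 55401 genes. Expression was measured by total RNA sequencing of bone marrow cells from 6 mice, each carrying a secondary transplant of a leukaemia made with Hoxa9 and Meis1. The lymphoid group (Lym, mice 62, 63 and 87) received lymphoid leukaemic stem cells and gave cells labelled lymphoid. The other group (Lin-, mice 56, 57 and 91) received Lin- leukaemic stem cells and gave Lin-, cKit+ progenitor cells. All 6 mice share the Hoxa9 and Meis1 background, and no healthy marrow was analysed here. With 1 library per mouse, replicates here are mice, and whether mice share a donor leukaemia is not given in the sources used here. In RNA from a cell population, fewer cells of a type and less RNA per cell cannot be told apart.

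Mitochondria keep a small genome that encodes core subunits of the respiratory chain and 2 ribosomal RNAs. The ribosome that reads those messages is assembled inside the organelle from these RNAs and from proteins made in the cytosol from nuclear genes. Its large subunit joins amino acids and its small subunit decodes the message. Many of its proteins have counterparts in bacteria (called conserved below) and others are found only in mitochondria. The symbols do not follow the subunits throughout: Mrps18a and Mrps30 belong to the large subunit, and Mrps36 is now known as a component of the alpha-ketoglutarate dehydrogenase complex. With those placements, 51 genes encode large-subunit proteins and 26 small-subunit proteins, 46 of them conserved and 31 specific to mitochondria. The 78 genes lie on 17 chromosomes, with the most, 11, on chromosome 11.

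Nuclear genes of mitochondrial proteins often have start regions with sites for the factors NRF1, GABP (an ETS family factor) and YY1. Start regions of 300 bases, from 250 before to 50 after a start, were found in RefSeq (build GRCm38.p6) for 69 of the 78 genes. The letters CCGGAAG, an ETS core, or their reverse complement stood in those of 26 genes (37.7%), against 22.04% of 9128 tested genes and 9.93% of all 27025 genes with such a region. ATGGCGG, a YY1 core, stood in 13 (18.8%), against 10.1% and 4.69%, and GCATGCGC, an NRF1 core, in 8 (11.6%), against 6.30% and 3.05%. Both strands were searched, and the 3 motifs share no overlapping match in the sequences below. A match is a description of the letters and not a bound site. The median difference between the groups, on the log2 scale explained below, was -0.26 in the 25 tested genes with an ETS match and -0.24 in the 43 without one.

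4 start regions are shown with matches in capitals: those of Mrps16 and Mrps22, which were among the 3 genes lowest in Lym relative to Lin-, of Mrps31, which had the highest value in Lym relative to Lin-, and of Mrpl53, which was barely detected. The region of Mrps16 (chr14:20393441-20393740, minus strand) held the ETS letters at 2 places. A second listed start region of this gene, which overlaps the first, held no match, nor did that of Mrpl11. The region of Mrps22 (chr9:98601630-98601929, minus strand) held 1 ETS match. That of Mrps31 (chr8:22411090-22411389, plus strand) held no match. That of Mrpl53 (chr6:83108858-83109157, plus strand) held 2 ETS matches and 1 YY1 match.
Mrps16: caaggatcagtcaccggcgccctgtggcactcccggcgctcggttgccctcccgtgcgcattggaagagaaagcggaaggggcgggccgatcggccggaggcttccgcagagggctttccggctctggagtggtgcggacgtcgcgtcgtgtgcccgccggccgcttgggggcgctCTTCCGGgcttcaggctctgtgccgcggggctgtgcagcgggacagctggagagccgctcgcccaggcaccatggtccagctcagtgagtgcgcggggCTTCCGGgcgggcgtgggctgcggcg
Mrps22: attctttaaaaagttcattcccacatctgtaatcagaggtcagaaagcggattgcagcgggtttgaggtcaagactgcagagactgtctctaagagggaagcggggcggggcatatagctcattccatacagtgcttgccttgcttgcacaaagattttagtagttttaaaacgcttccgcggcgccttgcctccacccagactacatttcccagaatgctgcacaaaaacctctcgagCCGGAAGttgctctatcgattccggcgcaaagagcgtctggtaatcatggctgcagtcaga
Mrps31: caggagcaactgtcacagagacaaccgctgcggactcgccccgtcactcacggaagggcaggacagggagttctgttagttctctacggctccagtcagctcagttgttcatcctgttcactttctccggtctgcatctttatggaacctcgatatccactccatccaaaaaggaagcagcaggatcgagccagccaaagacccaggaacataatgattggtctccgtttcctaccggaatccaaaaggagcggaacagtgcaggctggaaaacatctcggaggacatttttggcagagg
Mrpl53: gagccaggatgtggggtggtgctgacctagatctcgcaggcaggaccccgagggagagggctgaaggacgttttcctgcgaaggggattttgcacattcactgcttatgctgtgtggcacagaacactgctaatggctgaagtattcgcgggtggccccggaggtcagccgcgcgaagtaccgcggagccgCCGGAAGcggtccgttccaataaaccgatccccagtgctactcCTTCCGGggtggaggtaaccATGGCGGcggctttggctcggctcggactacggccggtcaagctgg

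Some facts of the libraries touch every result below. Reads assigned to genes came to 18537700 to 22634286 per library. The library of Lym mouse 87 stood apart from its group: over all genes tested it differed from the Lin- libraries by 0.57 to 0.74 on the log2 scale (root mean square) and from those of Lym mice 62 and 63 by 1.10 and 0.91. Lym mice 62 and 63 differed from each other by 0.84, and mouse 63 from Lin- mouse 57 by 0.77. Counts are therefore given with and without mouse 87. The 11 early B markers summed to 73.8, 14.0 and 15.5 CPM (reads scaled to a common library total) in Lym mice 62, 63 and 87. In Lin- they summed to 4.95 to 22.1. Pax5 had at most 0.95 normalized counts in any library. Of the 3 genes of this list that were high enough to test, 2 had higher values in Lym. Il7r was at 424, 82.8 and 14.3 normalized counts in Lym against 2.65, 3.52 and 4.13 in Lin- mice 56, 57 and 91. Rag2 was at 361, 120 and 27.6 against 19.4, 38.7 and 13.4. The third, Cd79b, was lower in Lym, at 255, 28.0 and 244 against 414, 45.8 and 284. Kit, the receptor by which the Lin- cells are labelled, was at 18902, 12027 and 3158 normalized counts in Lym and 4953, 6066 and 3420 in Lin-. The 8 neutrophil genes summed to 2366 to 2679 CPM in Lym and 3017 to 6168 in Lin-, nearly all of it Mpo, and S100a8 had at most 7.92 normalized counts. The 7 macrophage genes summed to 248 to 333 against 325 to 382, with C1qa at 0 in every library. Erythroid genes reached at most 0.884 and T-cell genes at most 1.98 CPM. The part of these cell types in the results was not tested.

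The mitochondrial ribosomal protein genes had lower values in Lym than in Lin- almost throughout, by a small amount, and no single gene passed the test. A normalized count is a gene's reads divided by its library's size factor, and a log2 fold change here is the Lym minus Lin- difference of log2(normalized count + 2). Of the 77 genes high enough to test (10 or more normalized counts in 3 or more libraries), 74, or 96.1%, had a negative log2 fold change, against 51.3% of all 14273 genes tested. Their median log2 fold change was -0.27, against -0.01 over all genes tested, and single values ran from -0.74 to 0.29 with standard errors of 0.12 to 0.43. None passed an adjusted p of 0.05 in limma (Benjamini-Hochberg over all genes tested, lowest 0.441), where the share over all genes was also 0%. An unadjusted limma p under 0.05 was found for 8 members, all lower in Lym, against 4.27% of all genes tested that were lower at that level. This count changed with the mice kept. It was 1 without Lym mouse 62, Lym mouse 63 or Lin- mouse 56 and 3 without Lin- mouse 91. It was 7 without Lin- mouse 57 and 36 without Lym mouse 87. The count over all genes, in either direction, moved as well, from 1459 with all mice. In the same runs, in that order, it was 791, 865, 712, 760, 1179 and 3695. The authors' deposited table held none of the 78 among its calls (lowest adjusted p 0.721), while 0.32% of its genes were called.

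**Figure D1:**
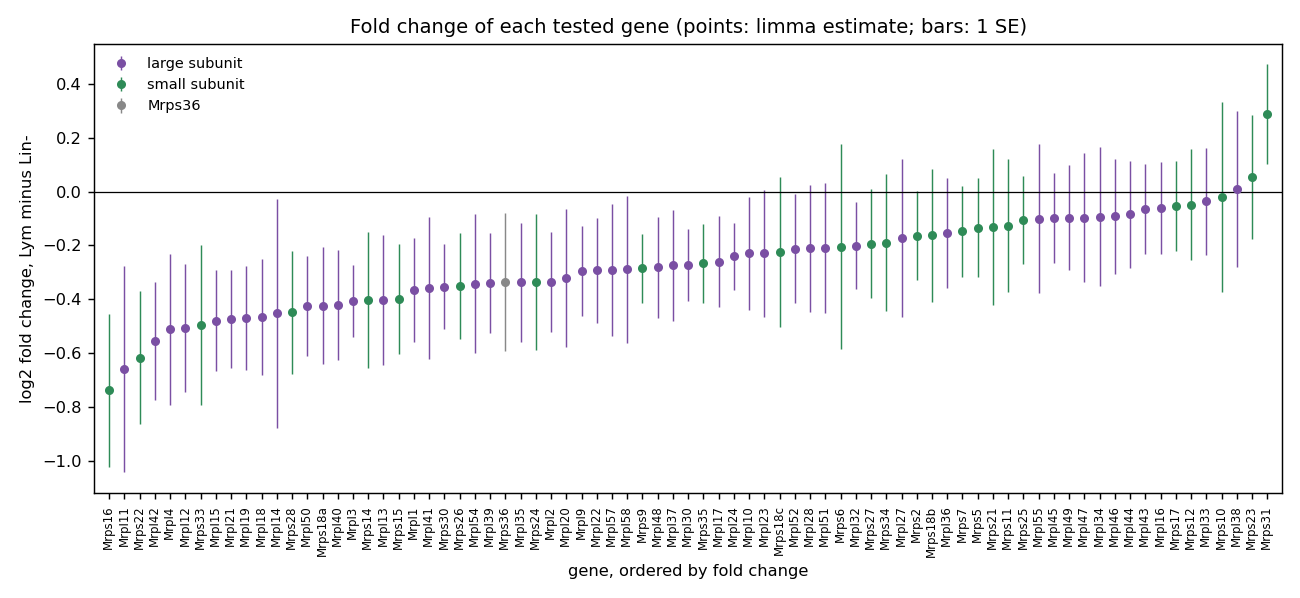
Log2 fold change (vertical axis, Lym minus Lin-, log2 scale) of each of the 77 tested genes, ordered from lowest to highest and coloured by subunit, with bars of 1 standard error. 74 of the points lie below 0, from Mrps16 at -0.74, and 3 lie above it, the highest being Mrps31 at 0.29.

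The low values were mostly those of Lym mice 62 and 63, not of Lym mouse 87. In 51 of the 77 genes the lowest 2 of the 6 libraries were those of mice 62 and 63, or 66.2%, against 18.6% of all genes tested. Mouse 62 was the lowest library in 35 genes and mouse 63 in 37, while mouse 87 was the lowest in none. Mouse 87 was the highest of all 6 libraries in 22 genes, second to Lin- mouse 56, which was the highest in 36. Its values lay inside the Lin- range for 42 genes, above it for 22 and below it for 13. Of all 14273 genes tested, 6853 lay inside, 3893 above and 3527 below, so the share above was near that of the members. Set against each gene's mean over the 6 libraries on the log2 scale, the median gene stood at -0.29 in Lym mouse 62, -0.31 in Lym mouse 63 and 0.21 in Lym mouse 87. The medians of the Lin- mice 56, 57 and 91 were 0.26, 0.02 and 0.14.

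**Figure D2:**
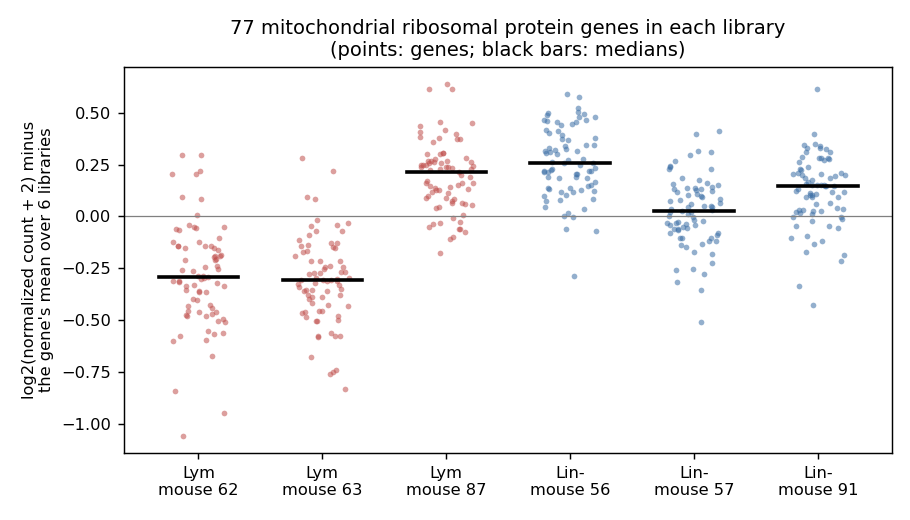
Each point is 1 of the 77 tested genes in 1 library, as log2(normalized count + 2) minus that gene's mean over the 6 libraries (vertical axis), and black bars are medians. The clouds of Lym mice 62 and 63 lie mostly below 0, with medians of -0.29 and -0.31, while that of Lym mouse 87 lies with the Lin- libraries, at 0.21.

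Summed over all 78 genes, these messages made up 1779, 1783 and 2554 CPM in the Lym mice, in the order 62, 63, 87, and 2773, 2347 and 2434 in the Lin- mice, in the order 56, 57, 91. Mouse 87 thus lay inside the Lin- range and the other 2 Lym mice below it. The group values were 2039 ± 446 in Lym and 2518 ± 225 in Lin- (SD, n = 3 each), so the groups overlapped. The genes of the large subunit gave 1208, 1226 and 1764 CPM in Lym against 1913, 1631 and 1701 in Lin-, and those of the small subunit 566, 552 and 784 against 853, 709 and 726. The ratio of large to small ran from 2.14 in Lym mouse 62 to 2.34 in Lin- mouse 91, a far narrower range than that of the sums.

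**Figure D3:**
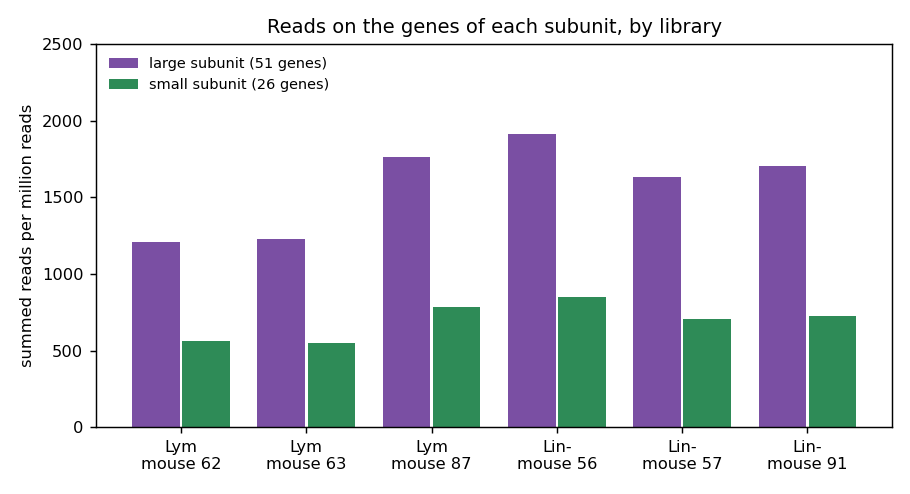
Summed CPM (vertical axis, from 0) on the genes of the large and the small subunit in each of the 6 libraries. In both subunits Lym mice 62 and 63 have the lowest bars, at 1208 and 1226 for the large and 566 and 552 for the small subunit.

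Leaving out the library of Lym mouse 87 changed the count of calls. Without it 13 of the 77 genes passed an adjusted p of 0.05 in limma, all lower in Lym, against 4.09% of all genes tested that were called lower. The median log2 fold change of the members was then -0.42. Their Lym and Lin- values were apart, in either direction, in 54 genes. All of these were lower in Lym except Mrps31, which was higher. Of all genes tested, 21.7% were apart with Lym lower. The 13 were Mrpl4, Mrpl11, Mrpl12, Mrpl15, Mrpl18, Mrpl19, Mrpl40, Mrpl42, Mrpl54, Mrps14, Mrps15, Mrps18a and Mrps22, with adjusted p from 0.0128 (Mrpl42) to 0.0449 (Mrpl54). Mouse 87 was left out because of its measured values, so these 13 calls are not independent support for a difference between the groups.

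Among large-subunit genes, 49 of 50 tested had negative log2 fold changes, with a median of -0.29. Mrpl11, a protein at the base of the stalk on which translation factors dock (chromosome 19, 4962147 to 4966999 in GRCm38), had 145, 175 and 438 normalized counts in mice 62, 63 and 87 of the Lym group. The Lin- mice 56, 57 and 91 had 375, 374 and 316. Mouse 87 was the highest of all 6 and mice 62 and 63 the lowest, and the log2 fold change was -0.66 ± 0.38 (SE, limma adjusted p = 0.559). It was -1.14 without mouse 87.

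Mrpl12, a protein of the stalk itself (chromosome 11, 120484613 to 120489065), was at 890, 933 and 1592 normalized counts in Lym and 1848, 1295 and 1591 in Lin-. The Lym values of mice 62 and 63 lay below all others, and that of mouse 87 lay within the Lin- range (log2 fold change -0.51 ± 0.24, limma adjusted p = 0.505). Mrpl4, a conserved protein that lines the tunnel through which the new chain leaves (chromosome 9, 21002738 to 21008839), was at 340, 497 and 791 against 757, 667 and 769 normalized counts. Mouse 87 was again the highest of the 6 (log2 fold change -0.51 ± 0.28, limma adjusted p = 0.542).

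Mrpl42, a protein specific to mitochondria (chromosome 10, 95480805 to 95501940), was at 666, 636 and 1103 normalized counts in Lym and 1225, 1015 and 1197 in Lin-. Its log2 fold change was -0.56 ± 0.22 (limma adjusted p = 0.462), and mouse 87 lay inside the Lin- range. Mrpl15, a conserved protein (chromosome 1, 4773206 to 4785739), was at 718, 758 and 1068 against 1363, 1081 and 1073. Here the groups did not overlap, though mouse 87 lay only just below the lowest Lin- value (log2 fold change -0.48 ± 0.19, limma adjusted p = 0.461).

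The small-subunit genes had a median log2 fold change of -0.19, with 24 of 26 negative. Mrps16, a conserved protein whose loss is known to impair mitochondrial translation (chromosome 14, 20389304 to 20393634), had the lowest log2 fold change of all members. It was at 185, 133 and 253 normalized counts in Lym and 326, 246 and 366 in Lin- (log2 fold change -0.74 ± 0.28, limma adjusted p = 0.460). Only mouse 87 reached into the Lin- range.

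Mrps22, specific to mitochondria (chromosome 9, 98588730 to 98601660), was at 415, 411 and 712 normalized counts in Lym and 926, 727 and 654 in Lin-. Mouse 87 lay inside the Lin- range, and the log2 fold change was -0.62 ± 0.25 (limma adjusted p = 0.465). Mrps33, also specific to mitochondria (chromosome 6, 39801804 to 39810988), was at 160, 88.4 and 145 against 213, 154 and 177. In this gene mouse 62 lay inside the Lin- range and mouse 87 below it, the opposite of the usual order (log2 fold change -0.49 ± 0.30, limma adjusted p = 0.575).

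The difference between conserved and mitochondria-specific proteins was not tested. All 46 conserved genes had negative log2 fold changes (median -0.27), as did 27 of the 30 tested genes specific to mitochondria (median -0.27). The 3 with positive values, Mrps31, Mrps23 and Mrpl38, are all specific to mitochondria, and none passed the test. Mrps31, a small-subunit protein (chromosome 8, 22411361 to 22429665), was at 538, 538 and 460 normalized counts in Lym and 474, 449 and 343 in Lin-. Its log2 fold change was 0.29 ± 0.18 (limma adjusted p = 0.591). Mice 62 and 63 were here the highest of the 6 libraries, and the value stayed positive with every mouse left out in turn. Mrps23 (chromosome 11, 88204388 to 88211507) was at 148 ± 12.6 against 143 ± 11.6 normalized counts (SD, n = 3 each), and its log2 value of 0.05 turned to -0.01 without mouse 87. Mrpl38 (chromosome 11, 116131817 to 116138868) was at 428, 535 and 906 against 596, 461 and 741. Its log2 fold change of 0.01 rested on mouse 87 and was -0.30 without it.

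Of the 77 genes, 14 had log2 fold changes within 0.1 of 0. Mrps10, the lowest of the tested genes per length, was at 88.6, 85.0 and 168 normalized counts in Lym and 141, 87.1 and 107 in Lin- (log2 fold change -0.02 ± 0.35). Mrpl33 was at 905 ± 168 in Lym and 931 ± 191 in Lin-. Mrps12, a protein of the decoding centre, was at 276 ± 51.4 and 283 ± 16.4, Mrps17 at 468 ± 47.9 and 486 ± 46.8, and Mrpl16 at 876 ± 123 and 915 ± 138 (SD, n = 3 each). In each of these 5 genes the groups overlapped and the sign depended on which mice were kept.

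The groups did not overlap in 12 of the 77 genes, always with Lym lower, against 7.08% of all genes tested. They were Mrpl3, Mrpl15, Mrpl19, Mrpl21, Mrpl24, Mrpl30, Mrpl32, Mrpl50, Mrps9, Mrps30, Mrps35 and Mrps36, and 5 of them had an unadjusted p under 0.05. Mrpl3, a conserved large-subunit protein (chromosome 9, 105053239 to 105079888), had the lowest p of all members. Mrpl3 overlaps Gm38077 (mean normalized count 122) by 3245 bases on the same strand. It was at 849, 890 and 1017 normalized counts in Lym and 1240, 1133 and 1275 in Lin-. The log2 fold change was -0.41 ± 0.13 (limma adjusted p = 0.441). Mrpl21 (chromosome 19, 3282901 to 3292837) was at 350, 357 and 417 against 615, 466 and 490 (log2 fold change -0.47 ± 0.18, limma adjusted p = 0.459). In both genes mouse 87 was the highest of the Lym mice, yet below the lowest Lin- value. Mrps9, a conserved small-subunit protein, was at 1215, 1257 and 1517 against 1591, 1624 and 1624, and Mrps36 at 94.2, 90.6 and 118 against 129, 125 and 128.

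Levels between genes are compared per length, as normalized counts per 1000 bases of the length in the deposited table. Which exons that length covers is not given in the sources used here. Among the 77 tested genes the mean over the 6 libraries ran from 14.0 for Mrps10 to 1034 for Mrpl18, with a median of 237, and the untested Mrpl53 was at 5.84. The 4 highest were Mrpl18, Mrpl12 (887), Mrpl54 (853) and Mrps28 (606). Mrpl18 (chromosome 17, 12911349 to 12916345) was at 1004, 1022 and 1654 normalized counts in Lym and 1955, 1413 and 1621 in Lin-. It overlaps Tcp1, a far more abundant gene (mean normalized count 13073), by 645 bases on the opposite strand, and whether reads were counted by strand is not given in the sources used here. Mrpl54 (chromosome 10, 81264713 to 81266934) was at 529, 454 and 922 against 815, 670 and 830. Mrps28 (chromosome 3, 8802146 to 8923918) was at 342, 335 and 539 against 633, 484 and 515. It overlaps Gm15466 (mean 83.5) by 333 bases on the same strand and Gm15467 (mean 37.1) by 445 bases on the opposite strand. In all 4 genes mice 62 and 63 were the lowest libraries.

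Of the 78 genes, 26 overlap another gene with a mean of at least 10 normalized counts, 21 of them on the opposite strand. The share of all genes with such an overlap was not counted. Mrpl46 and Mrps11, which point away from each other on chromosome 7, share 413 bases. Mrpl46 was at 391 ± 72.3 normalized counts in Lym and 417 ± 72.8 in Lin-, and Mrps11 at 222 ± 61.8 and 237 ± 17.1 (SD, n = 3 each). Mrpl53 (chromosome 6, 83109040 to 83109939) was the only member below the filter, at 14.6, 0 and 0 normalized counts in Lym and 3.53, 4.40 and 5.16 in Lin-. All 900 bases of its span lie inside Gm42688, which had a mean of 72.5, so Mrpl53's level is uncertain and no fold is given. A floor of 3 reads equalled 2.64 to 3.36 normalized counts and covers counting error only.

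Other genes of mitochondrial translation were taken from lists chosen with earlier results of these data known. The 5 mitoribosomal proteins with other names (Dap3, Chchd1, Aurkaip1, Ptcd3 and Gadd45gip1) resembled the members, with 5 of 5 negative and a median log2 fold change of -0.29. Aurkaip1, a small-subunit protein, was at 847, 887 and 1384 normalized counts in Lym and 1662, 1068 and 1399 in Lin-, and Gadd45gip1, of the large subunit, at 590, 737 and 1164 against 1113, 884 and 1070. In both, mice 62 and 63 were the lowest libraries, and mouse 87 was not. Of 26 assembly factors 19 were negative (median -0.12), of 15 translation factors 10 (median -0.16), and of 17 mitochondrial tRNA synthetases 9 (median -0.10). The pattern of mice 62 and 63 as the lowest 2 libraries was found in 3, 4 and 2 genes of these 3 lists. No gene of any of these lists passed the test.

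Among the assembly factors Fastkd2, which binds the large ribosomal RNA, was at 285, 220 and 365 normalized counts in Lym and 496, 409 and 402 in Lin- (log2 fold change -0.61 ± 0.23, limma adjusted p = 0.452). Its groups did not overlap. Mpv17l2 was low, at 18.8 ± 11.5 against 27.9 ± 14.1 (SD, n = 3 each). The recycling factor Mrrf was at 203 ± 22.8 against 279 ± 49.9, and the release factor Mtrf1 at 196 ± 31.99 against 262 ± 22.1, both without overlap. The synthetase genes furthest from 0 were Pars2, at 314 ± 47.3 against 247 ± 68.3, and Yars2, at 365 ± 117 against 439 ± 70.0.

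**Figure D4:**
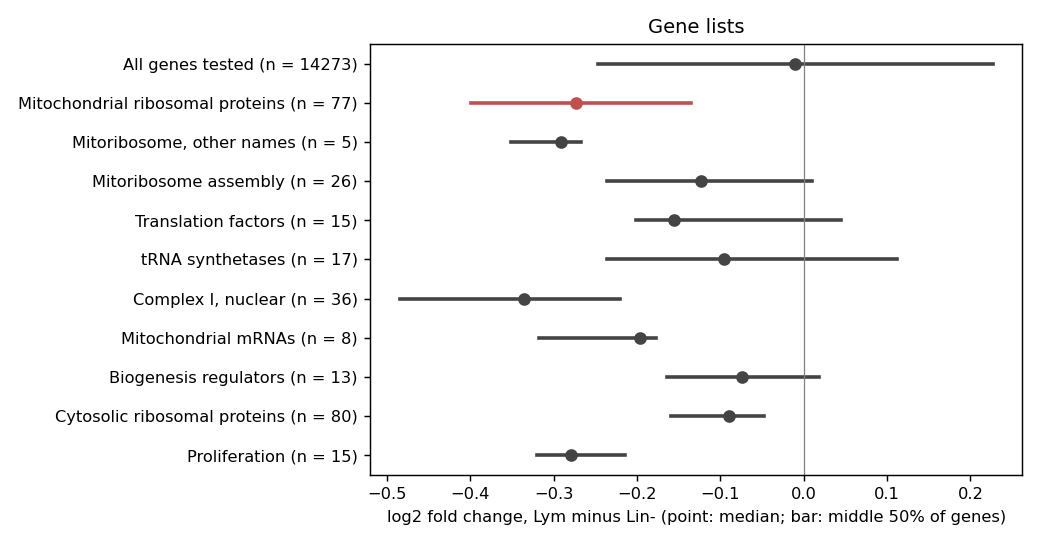
Median log2 fold change (points, horizontal axis, Lym minus Lin-) and the range of the middle 50% of genes (bars) for the members, for all genes tested and for related lists, with the number of tested genes. The members stand at -0.27, near the genes named for complex I (-0.34) and the proliferation genes (-0.28), while all genes tested stand at -0.01.

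The RNAs with which these proteins assemble did not follow them. The 2 mitochondrial ribosomal RNAs summed to 79074, 81251 and 63863 CPM in Lym and to 43310, 91363 and 89218 in Lin- (mice in the order used above). Lin- mouse 56, the highest library for the ribosomal protein genes in 36 cases, was thus the lowest for these RNAs. Of 13 mitochondrial messages 8 could be tested, and 7 had negative log2 fold changes (median -0.20), with mice 62 and 63 the lowest 2 libraries in none. mt-Nd3 was at 172, 144 and 126 normalized counts in Lym and 132, 238 and 272 in Lin-, and mt-Nd2 at 6495, 6026 and 5719 against 4605, 10522 and 10534. The untested 5 (mt-Co2, mt-Co3, mt-Atp6, mt-Atp8 and mt-Nd4l) are listed at or near 0 in every library, which for such abundant messages says nothing of their level.

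This ribosome makes the mitochondrial subunits of complex I. Of 36 nuclear genes named for that complex (Nduf symbols), 35 had negative log2 fold changes, and only Ndufa4 was positive (0.19). Their median was -0.34, with 10 at an unadjusted limma p under 0.05. Mice 62 and 63 were the lowest libraries in 28 of the 36. Membership of the complex was not checked gene by gene. Ndufb3 was at 105, 140 and 294 normalized counts in Lym and 401, 339 and 280 in Lin- (log2 fold change -1.03 ± 0.37, limma adjusted p = 0.451), and Ndufa1 at 195, 266 and 432 against 498, 386 and 475. Cytosolic ribosomal protein genes had a median of -0.09, with 66 of 80 negative. Of 13 tested regulators of mitochondrial gene expression 8 were negative (median -0.07). Myc, which is known to raise ribosome production, had higher values in Lym, at 10230, 7439 and 6023 against 5996, 5466 and 4756 (log2 fold change 0.52 ± 0.19, limma adjusted p = 0.452). Polg, the mitochondrial DNA polymerase, was at 921, 1111 and 1608 against 1607, 1757 and 1821 (log2 fold change -0.55 ± 0.20, limma adjusted p = 0.452).

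The 15 proliferation genes had 13 negative log2 fold changes (median -0.28), with mice 62 and 63 the lowest libraries in 12 and mouse 87 above the Lin- range in 11. They summed to 4290, 3954 and 7124 CPM in Lym and to 5943, 4613 and 5994 in Lin-. Rrm2, a subunit of ribonucleotide reductase, was at 1271, 1316 and 3315 normalized counts in Lym and 2740, 1985 and 3359 in Lin-, and thymidylate synthase (Tyms) at 681, 566 and 1183 against 1067, 965 and 1147. Their part in the result was not tested. The library of mouse 62 was made from 1 ng of RNA and the others from 2 ng, per the labels' protocols. The part of RNA input in the result was not tested.

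Over all genes tested, the log2 fold change depended on gene length, with medians of -0.09 under 1000 bases, -0.14 from 1000 to 2000, -0.06 from 2000 to 4000, 0.02 from 4000 to 8000 and 0.12 at 8000 and over. The members are short, with a median length of 2533 bases against 3680. In the same classes their medians were -0.32, -0.22, -0.29, -0.27 and -0.28, over 8, 22, 25, 18 and 4 genes, so each class of members lay below that of all genes.

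**Figure D5:**
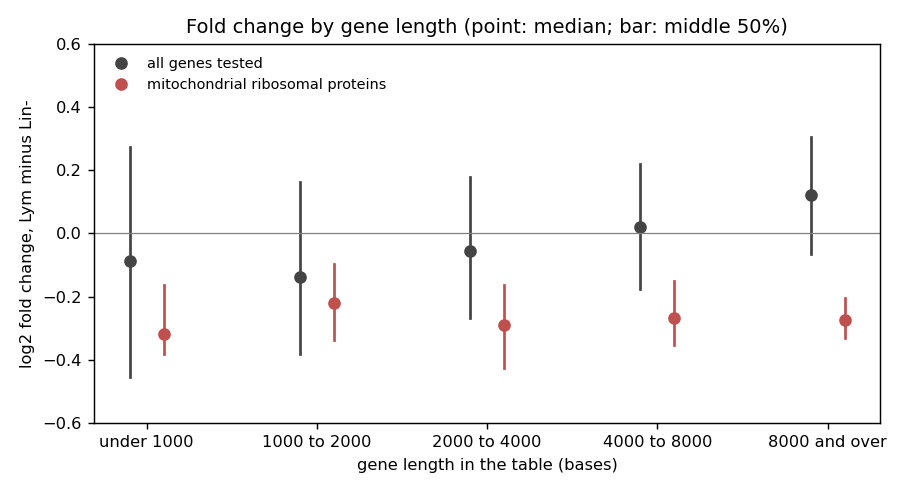
Median log2 fold change (points, vertical axis, Lym minus Lin-) and the range of the middle 50% of genes (bars) in 5 classes of gene length in bases, for all genes tested and for the members. The medians of all genes go from -0.14 at 1000 to 2000 bases to 0.12 at 8000 and over, while those of the members lie between -0.22 and -0.32.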

How the data were processed

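Total RNA was sequenced from marrow cells of 6 mice, 3 Lym and 3 Lin-, grouped by their labels, which give no batch and no pairing. The submitters' processing notes name GRCm38.p6, DESeq2, Trim Galore 0.6.4 for trimming, STAR 2.6.1d for alignment and featureCounts 1.6.4 for counting. The strand setting and annotation release are not given in the sources used here. The deposited signal per gene is a read number that the authors scaled by a size factor for each library. All values up to 10000 were whole multiples of their library's step (100%, tolerance 0.01), so whole reads were recovered. A log2 fold change, a Wald score and a p-value per gene came with it, per the file headers.

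Lym and Lin- were compared in limma 3.58.1 under R 4.3.3, with the trend option, on log2(normalized count + 2) over 14273 genes, two-sided, with Benjamini-Hochberg adjustment. edgeR 4.0.16 and DESeq2 1.42.0 on the recovered reads were alternatives, and the fits were tested on simulated data. Gene lists are described by counts and medians, without a test. The members, lists and rule were chosen with earlier results of these data known. The rule named the 8 highest and 8 lowest members by log2 fold change, the 4 highest per length, called members, members below the filter, and up to 2 genes of each other list. It gave 20 members. A further 15, without overlap or called without Lym mouse 87, and Mrpl46 and Mrps11, a pair that overlaps, were chosen after their values were seen. Summaries and plots used matplotlib 3.10.9, pandas 2.3.3 and Python 3.11.15.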

Additional observations from a re-analysis of the deposited data

How the results depend on the processing

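The median log2 fold change of the members kept its sign in every alternative run, from -0.29 to -0.26 across scalings, tools, pseudocounts and filters and from -0.42 to -0.19 with each mouse left out. No member was called with edgeR, DESeq2, limma-voom, another scaling, pseudocount or filter. Leaving out each mouse in turn gave 0 to 13 members called (13 without Lym mouse 87, 0 otherwise). It gave 1 to 16 members higher in Lym (16 without Lym mouse 63, 11 without Lym mouse 62, 10 without Lin- mouse 56). Members whose groups do not overlap, in either direction, numbered 12 to 54 (23 without Lin- mouse 57). With fewer libraries in a group, values lie apart more easily. Over all genes tested, the share apart with Lym lower was 7.08% with all mice and 21.7% without Lym mouse 87. This share was not counted with another mouse left out. Over all genes, calls numbered 0 to 1366 with a mouse left out, 226 with DESeq2, 5 with no filter and 1 with a pseudocount of 8, against 0; edgeR called 0, with 1444 genes at an unadjusted p under 0.05, and limma 0, with 1459. The cause was not tested.

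Signs turned for 7 named members near 0. Mrpl38 was at -0.0065 with TMM scaling and Mrps10 at 0.024 with edgeR, 0.0275 with DESeq2 and 0.0023 with limma-voom. With each mouse left out the log2 fold changes ran from -0.30 to 0.24 for Mrpl38, -0.33 to 0.16 for Mrps10, -0.19 to 0.11 for Mrpl33, -0.19 to 0.0502 for Mrpl16, -0.19 to 0.0480 for Mrps12, -0.14 to 0.0043 for Mrps17 and -0.0141 to 0.12 for Mrps23. For the 34 named members tested, 268 of 272 values under the other settings kept direction and side of the threshold. TMM scaling moved the median of all genes tested by less than 0.1 on the log2 scale. No paired analysis was possible because the groups share no mouse number. With 3 mice a group, standard errors of 0.12 to 0.43 exceed many of the differences, so a p above the threshold does not show that levels were alike.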
